A study of Mus musculus with 6 samples.

Results

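The genes described here are 31 named genes of microglia, the resident macrophages of the retina, and of the complement system. They were taken as the probe sets that the array annotation pairs with exactly 1 of the listed symbols. A total of 29 of the 31 genes had such a probe set, on 30 of the 41345 probe sets in all, and 25 of them were bright enough to be tested among 15619 genes. A gene was tested if its log2 value reached 5 on at least 3 of the 6 arrays; 24 of the 25 did so on all 6 and Itgam on 5, so none passed through 1 group alone. Ptprc, Cd14, Cfb and C5ar1 were too dim, the only probe set of Cd74 carries a second symbol, and C3 is not analysed here.

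The samples were total RNA from the retinas of male mice at postnatal day 17, with both eyes of a mouse pooled. The 3 knockout samples had the genotype Chx10Cre+/-;Atrx flox/y and the 3 wildtype samples, called littermates in the design text, Chx10Cre-/-;Atrx flox/y. All 6 mice therefore carried the floxed allele on their single X chromosome, and the groups differed in the Cre transgene, so an effect of Cre and of Atrx loss cannot be told apart. The series' design text describes this age as the peak of amacrine and horizontal cell loss in the knockout. Nothing in the labels says whether same-numbered samples share a litter.

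Microglia enter the retina from outside the neural lineage, whereas Chx10 is a gene of retinal progenitors, which give rise to retinal neurons and Muller glia. Microglia sense and engulf dying neurons, and many injuries of the retina raise their number and their activation genes. The complement cascade marks debris and synapses for them: C1q, made of 3 chains, starts the classical pathway, C4 and C3 are cleaved in turn, and the fragments are read by receptors on microglia. In bulk retina a lower value can mean fewer cells or less RNA per cell, and these cannot be told apart.

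Spi1, the gene of the transcription factor PU.1, is one of the members, so the sequences just before the start sites of the other members were searched for GAGGAA, the core of the PU.1 recognition box, on both strands. RefSeq promoter windows (GRCm38.p6, 250 bases before to 50 after the start) were found for 18 of the 29 genes, in 20 windows. The motif occurred in 10 of the 20 windows, against 28.3% of all 32851 windows in the table. In 6 windows it lay within the last 60 bases before the start, against 6.08% of all windows; this shorter stretch was chosen after the matches were seen. These 6 stretches are shown because they are where the members share a sequence feature that did not choose them. Each is written 5′ to 3′ on the strand of its gene and ends at the base before the start, with the match in capitals (GAGGAA, or TTCCTC where it lies on the opposite strand). A match is a description of these letters, not a binding site.
Aif1 (chr17:35176053-35176112, minus strand): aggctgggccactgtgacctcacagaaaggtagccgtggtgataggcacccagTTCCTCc
C1qb (chr4:136886201-136886260, minus strand): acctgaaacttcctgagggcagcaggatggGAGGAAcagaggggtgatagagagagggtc
Cd53 (chr3:106790150-106790209, minus strand): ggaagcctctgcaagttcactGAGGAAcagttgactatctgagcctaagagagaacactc
Itgam (chr7:128062580-128062639, plus strand): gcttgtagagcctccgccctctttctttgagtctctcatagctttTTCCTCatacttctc
Laptm5 (chr4:130913256-130913315, plus strand): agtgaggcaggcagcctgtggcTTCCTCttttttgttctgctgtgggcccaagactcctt
Trem2 (chr17:48346341-48346400, plus strand): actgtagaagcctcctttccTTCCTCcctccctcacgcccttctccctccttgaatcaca

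The mean log2 value of the 8 tested of 10 listed retinal neuron markers lay between 10.93 and 11.10 on the 6 arrays. These were Nrl, Gnat1, Pde6b, Opn1sw, Arr3, Grm6, Pax6 and Slc17a7, mostly genes of photoreceptors and bipolar cells. A loss of amacrine or horizontal cells can therefore not be read from this mean. All 8 had lower knockout means, as did 7675 of all 15619 genes tested, with a median of -0.050 and none called. The groups of the cone opsin gene Opn1sw did not overlap (-0.32, adjusted p = 0.159). Lens RNA was high on 1 array of each group: a list of 14 lens genes averaged 9.91 on knockout 2, 11.24 on wildtype 1 and 5.91 to 6.32 elsewhere. The mean of 9 pigment epithelium and choroid genes ran from 8.93 on knockout 1 to 10.27 on wildtype 2, but the genes of that list differed. Tyr, Tyrp1, Dct, Mlana and Pmel were lowest on knockout 1, whereas Rpe65, Rgr, Ttr and Lrat were lowest on wildtype 1. Atrx itself had values of 8.42, 8.72 and 8.33 in knockout and 9.04, 8.86 and 9.17 in wildtype retina, a log2 change of -0.53 (SE 0.12, limma adjusted p = 0.115), and which exons its probes cover was not examined. The values are RMA log2 values of single probe sets, so levels are compared between arrays and never between genes.

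None of the 25 tested genes was called between knockout and wildtype retina in limma's test at an adjusted p under 0.05, against 0.826% of all genes tested (0.48% higher and 0.346% lower in knockout). None had an unadjusted p under 0.05 either, against 13.5% of all genes tested. The log2 changes, knockout minus wildtype, ran from -0.27 for C4b to 0.11 for Fcer1g, and adjusted p-values from 0.531 to 0.991. The median change was -0.020, beside 0.0027 over all genes, and the median size of a change was 0.062, beside 0.098. Of the 25 genes 9 had a higher (36%) and 16 a lower mean in knockout, whereas 50.9% of all genes tested had a higher one. Without the lens-rich knockout 2 and wildtype 1 arrays 14 had the higher mean, and none was called.

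The 95% intervals, taken gene by gene and not adjusted for the number of genes, describe how large a change in array signal these arrays would allow. For all 25 genes the upper end of the interval lay under a 1.5-fold rise, as it did for 15025 of all 15619 genes tested. For 24 of the 25 (96%) the whole interval lay within 1.5-fold in either direction, the exception being C4b. The same held for 92.2% of all genes tested, so these bounds are not particular to the members. A gene with the median standard error would have needed a change of 0.61 on the log2 scale (1.53-fold) to be called, and the range over the genes was 0.40 to 0.99. These are cutoffs on the observed change of each gene, so true changes near or below them could be missed with 3 arrays per group. With a log2 floor of 6 in place of 5 only 16 of the genes were tested, so 9 lie close to background, where array values compress folds.

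**Figure D1:**
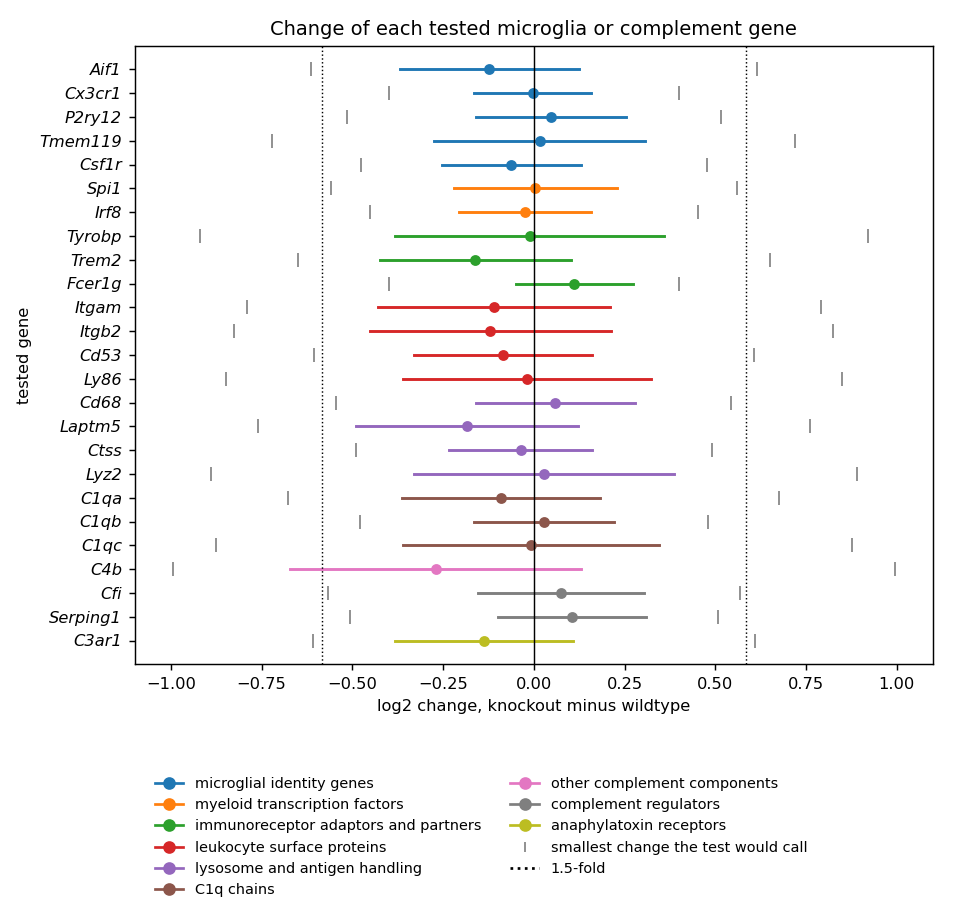
Log2 change (x axis, knockout minus wildtype) of each of the 25 tested genes (y axis), with points for limma's estimate, bars for its 95% interval, grey ticks for the smallest change the test would have called and dotted lines at 1.5-fold. Every interval spans 0, and the one of C4b alone passes a dotted line, on the lower side.

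The 5 microglial identity genes had changes between -0.12 and 0.047. Cx3cr1, the receptor by which microglia read the neuronal chemokine fractalkine, had log2 values of 7.05, 7.04 and 7.07 in knockout and 7.10, 7.02 and 7.05 in wildtype retina. The 6 values spanned 0.082, and the change was -0.0034 (95% interval -0.16 to 0.16), an interval whose ends lie at a 1.12-fold difference in array signal either way. P2ry12, the purinergic receptor of surveying microglia, had values of 6.85, 6.69 and 6.64 in knockout and 6.62, 6.62 and 6.79 in wildtype retina. The groups overlapped, and the change was 0.047 (-0.16 to 0.25).

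Tmem119, a membrane protein used to tell microglia from other macrophages, had values of 5.60, 5.40 and 5.58 in knockout and 5.46, 5.78 and 5.30 in wildtype retina. Its highest and its lowest value both came from wildtype arrays, and the change was 0.016 (-0.27 to 0.31). Aif1, which encodes the calcium-binding protein IBA1 used to stain microglia, had values of 5.23, 5.37 and 5.25 in knockout and 5.19, 5.50 and 5.54 in wildtype retina. Wildtype 1 lay below all knockout arrays and the other two wildtype arrays above them, with a change of -0.12 (-0.37 to 0.12, exact permutation p = 0.4). Csf1r, the receptor whose signal microglia need to survive, had group means of 6.79 ± 0.10 and 6.85 ± 0.07 (SD, n = 3), a change of -0.062 (-0.25 to 0.13).

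On the probe sets tested, both transcription factors of the myeloid lineage were alike in the groups within their spread. Spi1 had a knockout mean of 6.06 ± 0.17 and a wildtype mean of 6.05 ± 0.03 (SD, n = 3), a change of 0.0039 (-0.22 to 0.23). Irf8, which acts with PU.1 in microglia, had a change of -0.025 (-0.21 to 0.16) on the probe set tested. A second, dimmer Irf8 probe set stayed below 5 on every array, with 4.29, 4.19 and 4.22 in knockout and 4.48, 4.40 and 4.57 in wildtype retina. Its groups did not overlap, with a change of -0.25. Non-overlapping groups were found for 20.3% of all genes tested, which passed the floor, and for 17% with no filter on dim probe sets. At that level its values have no firm scale, and the difference between the probe sets was not tested.

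Fcer1g, the Fc receptor gamma chain that carries an activating signalling motif, was the only tested member whose groups did not overlap. Its values were 7.52, 7.49 and 7.46 in knockout and 7.34, 7.38 and 7.41 in wildtype retina, a change of 0.11 (SE 0.070, 95% interval -0.05 to 0.27, adjusted p = 0.531). Non-overlapping groups were found for 20.3% of all genes tested, 10.7% higher and 9.58% lower in knockout, so the members' share, 1 of 25, was below that of all genes. With arrays centred on their medians the groups of Fcer1g overlapped. The related adaptor Tyrobp (DAP12) had values of 6.09, 5.41 and 5.97 in knockout and 5.91, 5.78 and 5.81 in wildtype retina, and its change was -0.011 (-0.38 to 0.36). Trem2, the lipid receptor that signals through Tyrobp, had values of 6.30, 5.98 and 6.35 in knockout and 6.25, 6.44 and 6.42 in wildtype retina, a change of -0.16 (-0.42 to 0.10, adjusted p = 0.580). Knockout 2 was the lowest array for both genes.

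Among the leukocyte surface genes the 4 tested all had lower knockout means, as did 7675 of all 15619 genes tested, by less than their spread. Itgam and Itgb2 encode the chains of complement receptor 3, which binds cleaved C3. Itgb2 had values of 5.35, 5.26 and 5.19 in knockout and 5.16, 5.27 and 5.74 in wildtype retina, where wildtype 3 alone stood above the knockout arrays, and the change was -0.12 (-0.45 to 0.21). Without single arrays its change ran from -0.24 to 0.056. Itgam had a change of -0.11 (-0.43 to 0.21), Cd53, a tetraspanin of leukocytes, of -0.085 and Ly86, a partner of the toll-like receptor homologue RP105, of -0.020. The dim Ptprc (CD45) lay between 3.78 and 4.15 and Cd14, a co-receptor for lipopolysaccharide, between 4.68 and 4.97 on the 6 arrays, below the floor on all of them in both groups.

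The 4 tested genes of the lysosome had overlapping groups. Cd68, a lysosomal glycoprotein of phagocytes, had group means of 7.03 ± 0.11 and 6.97 ± 0.13 (SD, n = 3), a change of 0.058 (-0.16 to 0.28). Ctss, a cathepsin of antigen-presenting cells, changed by -0.036 (-0.23 to 0.16). Laptm5, a lysosomal membrane protein, had values of 5.42, 5.70 and 5.25 in knockout and 5.53, 5.84 and 5.54 in wildtype retina, overlapping groups with a change of -0.18 (-0.49 to 0.12, adjusted p = 0.591). Lyz2, the lysozyme of macrophages, varied more within knockout than between groups, with values of 5.82, 6.26 and 6.50 in knockout and 6.25, 6.12 and 6.13 in wildtype retina, and a change of 0.028 (-0.33 to 0.39).

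**Figure D2:**
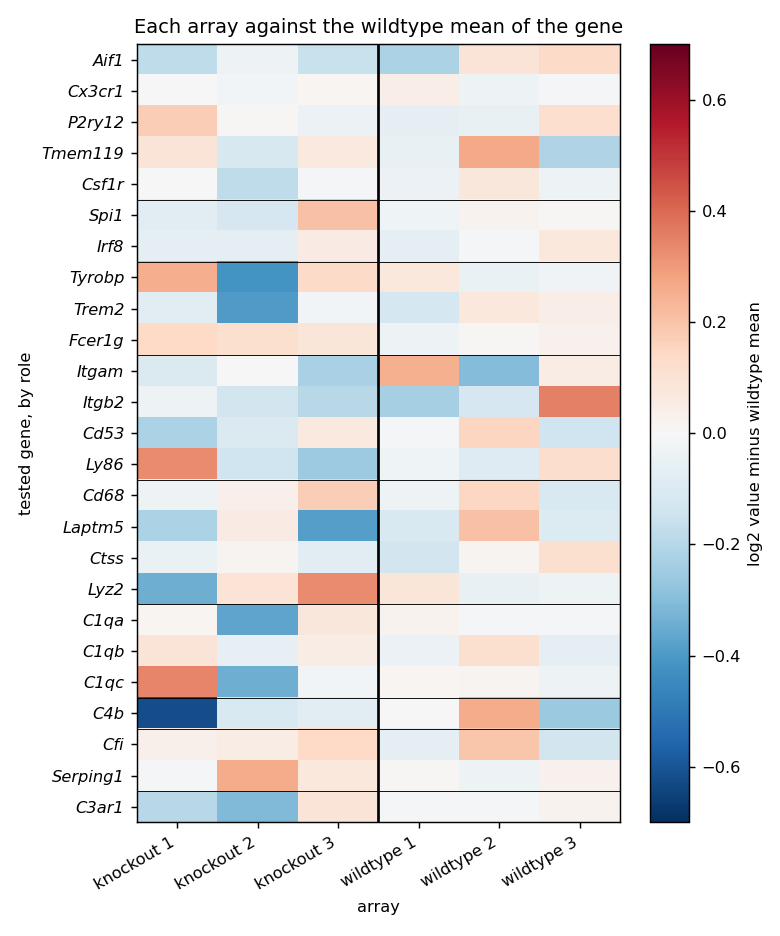
Log2 value of each tested gene (rows, grouped by role) on each array (columns) minus the wildtype mean of that gene, from blue (lower) to red (higher). No knockout column is red or blue throughout, and the deepest blue cells are C4b on knockout 1 and Tyrobp and Trem2 on knockout 2.

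The 3 chains of C1q, the recognition molecule of the classical pathway, had changes close to 0. Their genes neighbour each other among the protein-coding genes of the RefSeq table, in the order C1qb, C1qc, C1qa. C1qa had values of 6.53, 6.15 and 6.60 in knockout and 6.54, 6.51 and 6.50 in wildtype retina, a change of -0.092 (-0.36 to 0.18). C1qb had values of 8.03, 7.88 and 7.99 in knockout and 7.90, 8.05 and 7.87 in wildtype retina, a change of 0.028 (-0.17 to 0.22). C1qc had values of 6.43, 5.74 and 6.06 in knockout and 6.10, 6.10 and 6.05 in wildtype retina, a change of -0.0075 (-0.36 to 0.35). C1qa and C1qc were steady across the wildtype arrays (SD 0.019 and 0.031) and spread across the knockout arrays (SD 0.24 and 0.34), with knockout 2 lowest for both.

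Downstream of C1q, C4b had the largest change of the members and also the largest spread. Its values were 5.65, 6.17 and 6.19 in knockout and 6.28, 6.53 and 6.01 in wildtype retina, so wildtype 3 lay below knockout 2 and 3. The change was -0.27 (SE 0.17, 95% interval -0.67 to 0.13, adjusted p = 0.541, exact permutation p = 0.4). With single arrays left out it ran from -0.40 (without wildtype 3) to -0.095 (without knockout 1). Mouse C4b has a close copy, C4a, and how far the probes separate them was not examined. Cfb, the protease of the alternative pathway, lay between 4.75 and 4.94 on all 6 arrays and was too dim to test.

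Both complement regulators had higher knockout means, by about their spread or less. Serping1, the inhibitor of the C1 proteases, had values of 7.55, 7.83 and 7.64 in knockout and 7.58, 7.53 and 7.60 in wildtype retina. The groups overlapped through knockout 1, and the change was 0.11 (-0.10 to 0.31, adjusted p = 0.644). Cfi, the protease that inactivates C3b and C4b, had group means of 5.54 ± 0.06 and 5.47 ± 0.17 (SD, n = 3), a change of 0.073 (-0.16 to 0.30). Of the anaphylatoxin receptors, C3ar1 had values of 5.21, 5.10 and 5.49 in knockout and 5.39, 5.39 and 5.43 in wildtype retina, so knockout 3 lay above every wildtype array and the other knockout arrays below them. Its change was -0.14 (-0.38 to 0.11, adjusted p = 0.618), and without knockout 3 it was -0.25 (unadjusted p = 0.018, adjusted p = 0.256). C5ar1 reached 5 on 1 array only, with a range of 4.65 to 5.01.

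The members varied more between arrays of 1 group than between the groups. Their median residual SD within groups was 0.15, beside 0.12 over all genes and beside the median size of their changes, 0.062. Knockout 2 was the lowest array for 7 of 25 genes, Csf1r, Spi1, Tyrobp, Trem2, C1qa, C1qc and C3ar1, against 18.3% of all genes. Its lens list mean was high, as was that of wildtype 1. On wildtype 1, Trem2 (6.25), Csf1r (6.81), Spi1 (6.02) and C3ar1 (5.39) had their lowest wildtype value, whereas C1qa (6.54), C1qc (6.10) and Tyrobp (5.91) did not. Without knockout 2 the changes of Tyrobp, C1qc and C1qa were 0.19 (adjusted p = 0.310), 0.16 (0.522) and 0.047 (0.783). With the lens list mean as a covariate the changes were -0.18 (Trem2), -0.070 (Csf1r), -0.0034 (Spi1) and -0.15 (C3ar1). Those of C1qa, C1qc and Tyrobp were -0.10, -0.024 and -0.026, and no member was called. The part of lens RNA in these values was not tested beyond this fit.

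Knockout 1 was the lowest array for 4 of 25 genes, C4b (5.65), Lyz2 (5.82), Irf8 and Cd53. That share was no higher than the one over all genes, 19.5%. The pigment epithelium and choroid list mean was also lowest on knockout 1, 8.93, as were its genes Tyr, Tyrp1, Dct, Mlana and Pmel. Its gene Rpe65 was instead lowest on wildtype 1 (7.46, beside 8.19 on knockout 1), as were Rgr, Ttr and Lrat. C4b was highest on wildtype 2, where the list mean was highest, but Lyz2 was highest on knockout 3. Without knockout 1 the change of Lyz2 was 0.21 (adjusted p = 0.491). The part of pigment epithelium or choroid in these values was not tested. These pairs of genes and arrays were picked out after their values were seen.

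**Figure D3:**
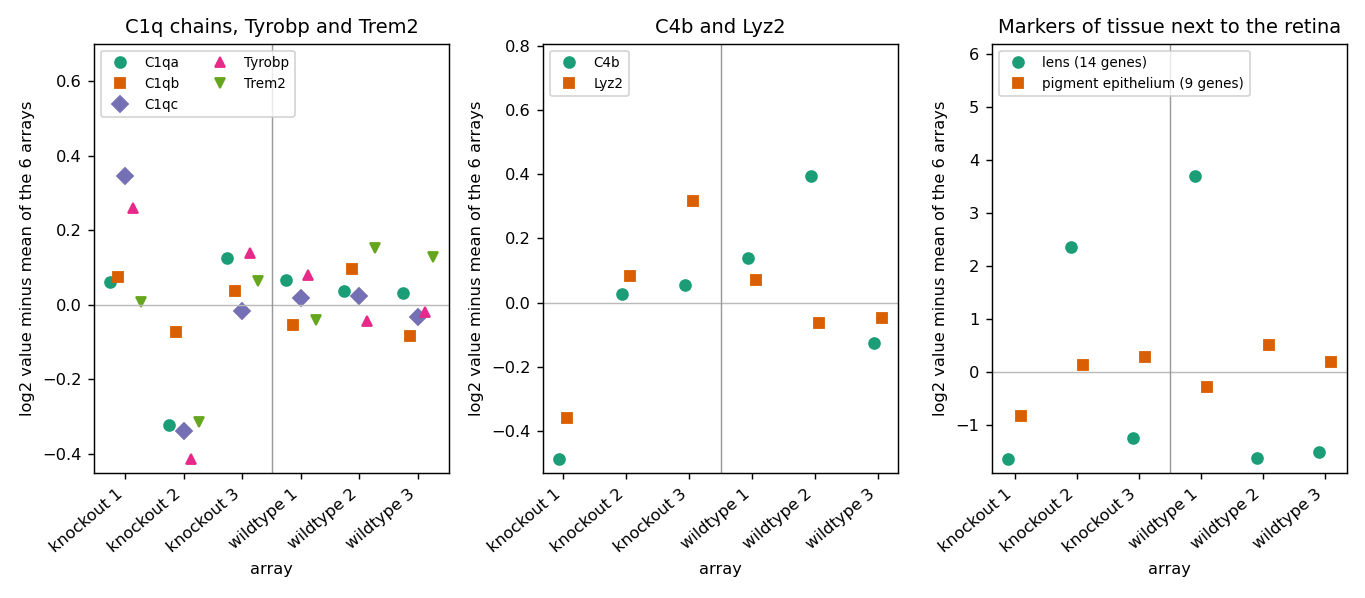
Log2 values on each array (x axis) minus the mean of the 6 arrays (y axis) for C1qa, C1qb, C1qc, Tyrobp and Trem2 (left), C4b and Lyz2 (middle), and the means of the lens and pigment epithelium lists (right, on a wider scale). C1qa, C1qc, Tyrobp and Trem2 are low together on knockout 2, C4b and Lyz2 are low together on knockout 1, and the lens mean is high on knockout 2 and wildtype 1.

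The spread was larger in knockout than in wildtype retina for 15 of the 25 members and for 67.0% of all genes. The knockout SD was over 3 times the wildtype SD for 7 of the 25, namely Spi1, Tyrobp, Lyz2, C1qa, C1qc, Serping1 and C3ar1, and for 18.7% of all genes. The reverse held for Itgb2 and Cfi and for 5.21% of all genes.

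Genes of the same pathways that are not members gave a like picture. Of 20 further genes of resident microglia 12 were tested, 5 had higher knockout means, the median change was -0.016 and none was called. Hpgds, a prostaglandin D synthase, was at 0.25 (SE 0.086, adjusted p = 0.265), Tgfbr1, a receptor of TGF-beta, at 0.17 and Olfml3, a secreted protein of microglia, at -0.19. Of 20 genes that mark disease-associated microglia 17 were tested, 7 had higher knockout means, the median was -0.046 and none was called. Cd9, a tetraspanin, was at 0.25 (adjusted p = 0.403), the integrin Itgax at -0.27 and the lysosomal protease Ctsb at -0.13. Several genes of that list, such as Apoe and Ctsd, are also made by other retinal cells.

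The members and the other immune lists together held 104 tested genes, of which 1 was called (0.962%, beside 0.826% of all genes). The lists were chosen with earlier results of these data known, so this share is a description only. The called gene belongs to the list of signals that sustain or restrain microglia. Csf2ra, the alpha chain of the receptor for the growth factor GM-CSF, fell in knockout retina, with values of 6.57, 6.58 and 6.52 in knockout and 7.28, 7.35 and 7.62 in wildtype retina. The groups did not overlap, with a change of -0.86 (SE 0.10, adjusted p = 0.00966), a 1.81-fold lower mean. The call was lost without wildtype 2 (-0.89, adjusted p = 0.0546) and without both lens-rich arrays (-0.94, adjusted p = 0.0571). All 9 tested genes of the list had lower knockout means, as did 7675 of all 15619 genes tested, with a median of -0.14. Cx3cl1, the ligand of Cx3cr1, was at -0.14 (adjusted p = 0.477), Tgfb1 at -0.19 and Csf2rb, the beta chain that pairs with Csf2ra, at -0.10 (adjusted p = 0.847).

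Of 34 other complement genes 19 were tested, 7 had higher knockout means, the median was -0.042 and none was called. Cd59a, an inhibitor of the membrane attack complex, was at 0.34 (SE 0.12, adjusted p = 0.268), the terminal pathway inhibitor Vtn at -0.14 and C1qbp, a mitochondrial protein that can bind C1q, at 0.14. Fc gamma receptors and MHC class II genes had 8 tested members, 6 with higher knockout means, and a median of 0.039. The list of cytokines and chemokines, which also holds the prostaglandin-making enzyme Ptgs2, had 7 tested members, 3 of them higher, and a median of -0.019. Ptgs2 was at 0.19, Ccl4 at -0.18 and Tnf at 0.13. Genes of the NF-kappa B and inflammasome pathways had 8 tested members, 4 of them higher, and a median of 0.021. None of these genes was called. Without both lens-rich arrays the medians of the Fc receptor and MHC list and of the cytokine list turned to -0.044 and 0.083.

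Many markers of other blood and border cells were too dim to test. Of 10 neutrophil markers 5 were too dim and 5 were tested, with a median of -0.022 and list means from 5.15 to 5.42 on the 6 arrays (median 0.045 without both lens-rich arrays). Of 12 lymphocyte markers 7 were too dim and 4 were tested, with a median of -0.19 and list means from 4.96 to 5.39. Of 10 border macrophage and monocyte markers 6 were too dim, and 4 were tested, with a median of -0.039 (-0.15 without both lens-rich arrays) and list means from 6.36 to 6.59. Mrc1, the mannose receptor of border macrophages, was at -0.29 (SE 0.11, adjusted p = 0.293) with the 3 knockout values below the wildtype values, and the other 3 genes were between -0.045 and 0.017. Of 12 tested markers of Muller glia and astrocytes 7 had higher and 5 lower knockout means, with a median of 0.059. The groups did not overlap for 6 of the 12, 3 in each direction, against 20.3% of all genes. Gfap, the intermediate filament raised in reactive glia, was at 0.44 (SE 0.13, adjusted p = 0.195), Dkk3 at -0.26 and S100b at 0.20. None of these markers was called.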

How the data were processed

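Whole retina RNA of 3 knockout and 3 wildtype mice was measured on Affymetrix mouse gene arrays (cDNA input 100 ng of RNA). The values deposited by the authors are log2 values, 1 for each probe set, which the submitters' processing notes credit to RMA. That method corrects background, quantile-normalizes arrays and summarises probes, so a global change in RNA is not seen. The version of RMA and the annotation's genome build: not given in the sources used here. Genes were named from probe sets with 1 symbol in the platform annotation (23521 of 41345; 1814 have several and 16010 none), and 23328 of these matched RefSeq GRCm38.p6 by gene identifier. The brightest probe set passing the floor stood for a gene. Array medians lay between 5.57 and 5.64.

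All 15619 genes entered 1 fit, run in limma 3.58.1 under R 4.3.3 (lmFit and eBayes, 2-sided, genotype alone as the term), with Benjamini-Hochberg adjustment over all genes, and intervals are limma's 95% intervals. The smallest callable change uses the largest unadjusted p among called genes, 0.00041. Exact permutation tests were 2-sided, and with 3 against 3 arrays the smallest p they can give is 0.1. P-values refer to the spread between these 6 mice. For limma's p-values, standard errors and intervals, eBayes also draws each gene's variance toward a value shared by all genes. Genes with a small spread of their own, such as Fcer1g (residual SD 0.031, SE 0.070), therefore have wider intervals than their own arrays would give. The procedure was tested on simulated data. Members and lists were chosen with earlier results of these data known. All members were accounted for; array values are given for 8 fixed genes and the 8 with the smallest unadjusted p, and Tyrobp, Lyz2, the dim Irf8 probe set, the dim genes and Csf2rb were added after their values were seen. Other lists are otherwise shown by up to 3 genes with the smallest unadjusted p. The alternatives for Csf2ra were added after its call was seen. Figures were drawn with matplotlib 3.10.9.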

Additional observations from a re-analysis of the deposited data

How the results depend on the processing

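No member was called under any of 15 alternatives, and the lowest adjusted p was 0.256 (C3ar1 without knockout 3). At most 2 members had an unadjusted p under 0.05 under any of them. A total of 11 of the 25 members kept their sign throughout, but with 1 array left out most of these moved by over 1.5 times: -0.23 to -0.057 (Aif1), -0.092 to -0.0036 (Csf1r), -0.23 to -0.045 (Trem2), -0.16 to -0.011 (Cd53), 0.0013 to 0.13 (Cd68), -0.30 to -0.082 (Laptm5), -0.40 to -0.095 (C4b), 0.0092 to 0.17 (Cfi), 0.028 to 0.16 (Serping1) and -0.25 to -0.052 (C3ar1), beside 0.093 to 0.13 for Fcer1g. Spi1 turned to -0.00059 with centred arrays and -0.0034 with the lens list mean as a covariate; without both lens-rich arrays Cx3cr1 became 0.027, Tyrobp 0.23, Ly86 0.025, C1qa 0.058 and C1qc 0.17. The changes that turned sign when 1 array was left out ranged from -0.022 to 0.019 (Cx3cr1), -0.015 to 0.10 (P2ry12), -0.089 to 0.15 (Tmem119), -0.096 to 0.065 (Spi1), -0.067 to 0.012 (Irf8), -0.14 to 0.19 (Tyrobp), -0.26 to 0.015 (Itgam), -0.24 to 0.056 (Itgb2), -0.20 to 0.096 (Ly86), -0.10 to 0.019 (Ctss), -0.12 to 0.21 (Lyz2), -0.18 to 0.047 (C1qa), -0.0072 to 0.083 (C1qb) and -0.18 to 0.16 (C1qc).

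The count of genes called over the whole array, 129 in the reported analysis, was 74 with no filter on dim probe sets, 209 with a log2 floor of 6, 282 with an intensity trend and robust spread, 36 without both lens-rich arrays and 25 to 141 with 1 array left out. With the replicate number as a block it was 68, and no member was called. Same-numbered arrays did not deviate together (r from -0.38 to -0.058 across genes), and none of the 3 knockout arrays correlated best with its own number. The count of members with groups that do not overlap was 0 with centred arrays (17.7% of all genes), 3 to 4 with 1 array left out (26.8% to 35.4% of all genes) and 8 without both lens-rich arrays (45% of all genes), where fewer arrays make separation easier; 14 members then had the higher knockout mean. The causes of the other shifts were not tested. Signal near background limits what the dimmest 9 tested members and the 4 untested ones can show.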
